A study of Brachypodium distachyon with 11 samples.

Results

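At some sites of the *Brachypodium distachyon* genome, anti-FLAG ChIP-seq of ELF3 recurrently gave a peak while ChIP-seq of PHYC and of PRR37 gave none. All deposited peaks on chromosomes 1 to 5 were merged wherever they overlapped by at least 1 bp, which gave 37936 regions. Members were chosen by presence alone: a region had to be listed in at least 5 of the 7 ELF3 libraries and in none of the 2 PHYC libraries and the PRR37 library. This selected 905 regions, which are called ELF3-only regions here. They were 9.87% of the 9170 regions held by at least 5 ELF3 lists, and the other 8265 regions, which also held a PHYC or PRR37 peak, serve as the shared regions for comparison.

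All libraries came from whole seedlings of the cultivar Bd21-3 in the second week of growth at the same temperature, and each plant carried a FLAG-tagged transgene under a ubiquitin promoter, so the ChIP measured overexpressed proteins. The 7 ELF3_OX libraries came from long days (LD), short days (SD) and continuous light (LL): LD ZT0, SD ZT0, LL ZT0, LD ZT4, SD ZT4, LD ZT20 and SD ZT20, where ZT counts hours from lights on. They were set against PHYC (phyC_OX, 2 libraries labelled LD ZT20) and PRR37 (PRR37_OX, 1 library from LD ZT4). Every ELF3 condition and PRR37 has 1 library, and no peak list of an untagged plant or of the input was used. The ELF3 libraries of LD ZT0, SD ZT0, LL ZT0, SD ZT4 and SD ZT20 have no PHYC or PRR37 library of the same condition. The deposited lists hold 13666 to 16457 peaks for the ELF3 libraries, against 12344 to 13350 for the PHYC and PRR37 libraries, and the read depth behind them is unknown.

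ELF3 is a scaffold protein of the evening complex. In Arabidopsis it joins the DNA-binding factor LUX with ELF4, and the complex represses clock, growth and flowering genes during the night. PHYC is a red light receptor that is needed for flowering of temperate grasses in long days, and PRR37, also named PPD1, is a pseudo-response regulator that promotes flowering in long days. The question that the comparison addresses is which ELF3 sites recur from library to library without a call for either of the other proteins.

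The ELF3-only regions were weaker than the shared regions. Each deposited peak has a fold enrichment over local background and a p-value and q-value from the peak caller, and the lists reach down to p just under 0.1. For each region the median was taken over the ELF3 lists that hold it. The median fold enrichment over the 905 ELF3-only regions was 2.32 (range 1.64 to 4.12), against 2.58 over the shared regions. The median −log10 p was 2.09 for the ELF3-only regions and 2.55 for the shared regions. These pooled medians mix different recurrence, since 4523 of the 8265 shared regions but only 116 of the 905 ELF3-only regions were in all 7 ELF3 lists. Among regions in 5 ELF3 lists the median −log10 p was 1.998 for ELF3-only and 2.08 for shared regions. Among those in 6 it was 2.16 and 2.26. The gap was wider among regions in all 7 lists, with 2.27 and 2.96. In 499 ELF3-only regions (55.1%) the q-value was 1 in every ELF3 list that held the region, as it was in 26.1% of the shared regions. A q-value under 0.01 in at least 1 ELF3 list was reached by 2 ELF3-only regions (0.221%) and by 822 shared regions (9.95%), and by 8.99% of all regions held by at least 5 ELF3 lists. The part of this lower strength in their absence from the PHYC and PRR37 lists was not tested.

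Within single libraries the ELF3-only regions had nearly the same median fold as the whole list, but few strong peaks. Their median fold was 2.31 in LD ZT0, where all peaks had 2.36, and 2.38 in SD ZT0, where all peaks also had 2.38. It was 2.35 in LL ZT0, against 2.37 for all peaks. At ZT4 it was 2.35 in LD and 2.28 in SD, against 2.31 and 2.28 for all peaks of the same libraries. At ZT20 it was 2.37 in LD and 2.30 in SD, against 2.40 and 2.31 for all peaks. By fold they were close to the median peak of each list, and they made up 4.48% to 5.26% of the peaks of an ELF3 library. Their peaks with q under 0.01 numbered 1 in LD ZT0, 2 in SD ZT0, 1 in SD ZT20 and none in the other libraries. Of all peaks of an ELF3 library, 1.16% (SD ZT20) to 3.31% (SD ZT0) had q under 0.01.

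Recurrence and absence went in opposite directions. Of the ELF3-only regions, 504 were listed in 5 ELF3 lists, 285 in 6 and 116 in all 7. The share of regions with no PHYC or PRR37 peak was 22.7% among the 2220 regions in 5 ELF3 lists, 12.3% among the 2311 in 6 and 2.5% among the 4639 in all 7. Just outside the rule, 913 regions held by 4 ELF3 lists also lacked PHYC and PRR37, with a median fold of 2.22 and a median −log10 p of 1.91, while the 504 members in 5 lists had 2.27 and 2.0. On the other side of the rule, 1575 regions in at least 5 ELF3 lists had a peak in exactly 1 of the other 3 lists. That single peak had a median −log10 p of 1.92 and lay under q of 0.01 in 2 regions. It came from the first PHYC library in 851 regions, from the second PHYC library in 299 and from PRR37 in 425.

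The calls within an ELF3-only region lay close together. The summits of the ELF3 lists had a median SD of 34.97 bp in ELF3-only regions and 31.4 bp in shared regions, and the distance from the first to the last summit was at most 100 bp in 56.0% of ELF3-only regions and in 59.3% of shared regions. The merged ELF3-only regions were 197 to 1202 bp wide, with a median of 351 bp, against 450 bp for the shared regions. In 873 of the 905, every list that held the region held a single peak there. Only overlapping peaks were merged, which by itself keeps the summits of a region close. Shared regions were merged with PHYC or PRR37 peaks as well, so their width is not a like measure. The summit SD, taken over ELF3 lists alone, was slightly larger in ELF3-only regions.

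The ELF3-only regions were distributed differently around genes. By the midpoint of the region, 23.98% (217 of 905, Wilson 95% interval 21.3 to 26.9%) lay more than 500 bp inside a protein-coding gene, against 13.5% (12.8 to 14.3%) of the shared regions. Only 6.74% (61 of 905, 5.28 to 8.56%) lay outside a gene and within 500 bp of its end, where promoters and the sequence just past a gene are found, against 17.5% (16.7 to 18.4%) of the shared regions. The first 500 bp inside a gene end held 37.0% of the ELF3-only and 40.5% of the shared regions. Positions from 500 bp to 2 kb outside a gene held 12.6% and 12.8%, and positions farther away held 19.7% (17.2 to 22.4%) of ELF3-only and 15.6% (14.9 to 16.4%) of shared regions. Over all 37936 merged regions, 20.1% lay deeper inside a gene, 15.1% just outside an end and 20.8% farther than 2 kb away, so the ELF3-only share far from genes was not above that of all regions. Of all positions of the 5 chromosomes, 27.1% lie more than 500 bp inside a gene and 7.74% lie within 500 bp outside an end. The intervals cover counting error over regions, which are not replicates, and gene strand was not used, so the start and the end of a gene are not told apart.

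**Figure D1:**
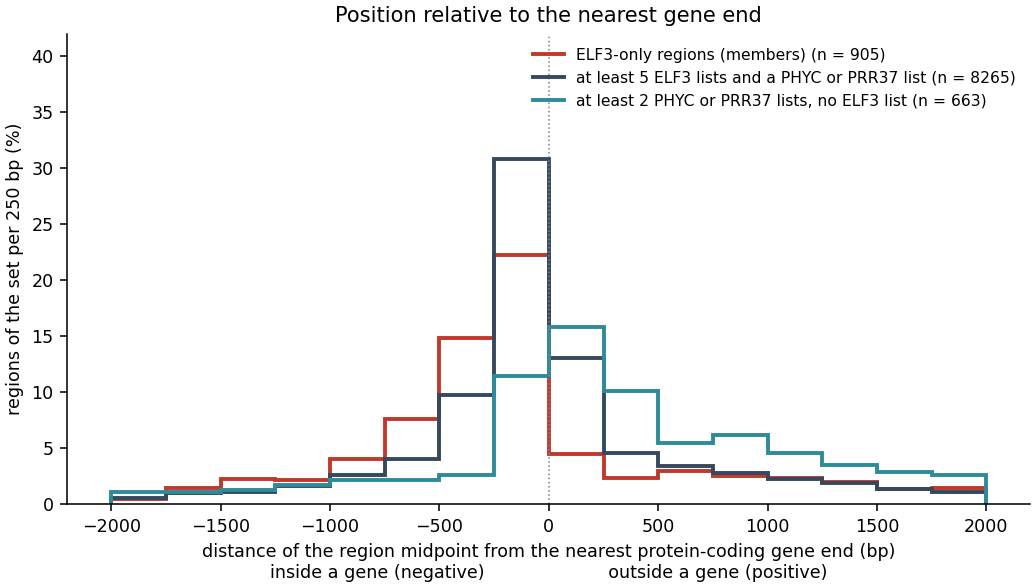
Share of regions per 250 bp (vertical axis, percent of each set) against the distance of the region midpoint from the nearest end of a protein-coding gene (horizontal axis, bp, negative inside a gene), for ELF3-only regions (n = 905), shared regions (n = 8265) and regions in at least 2 PHYC or PRR37 lists and no ELF3 list (n = 663). In the 250 bp just outside a gene end the ELF3-only regions hold 4.42%, the shared regions 13.0% and the regions without ELF3 15.8%.

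The profile of the ELF3-only regions was shifted into the gene. They held 22.2% of their number in the last 250 bp inside an end, against 30.8% of the shared regions. Farther in, from 250 to 500 bp, they held 14.8% against 9.70%, and from 500 to 750 bp 7.62% against 4.005%. The mirror set was formed by 663 regions listed in at least 2 PHYC or PRR37 lists and in no ELF3 list. Of the ELF3-only regions 61.0% lay inside a gene, against 54.1% of the shared regions and 47.1% of all merged regions. The mirror set stood apart from all of these, with 25.6% inside a gene and 25.9% within 500 bp outside an end. Seen the other way round, 16.3% of the 1334 recurrent ELF3 regions lying deeper inside genes were ELF3-only, against 4.04% of the 1510 just outside an end.

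**Figure D2:**
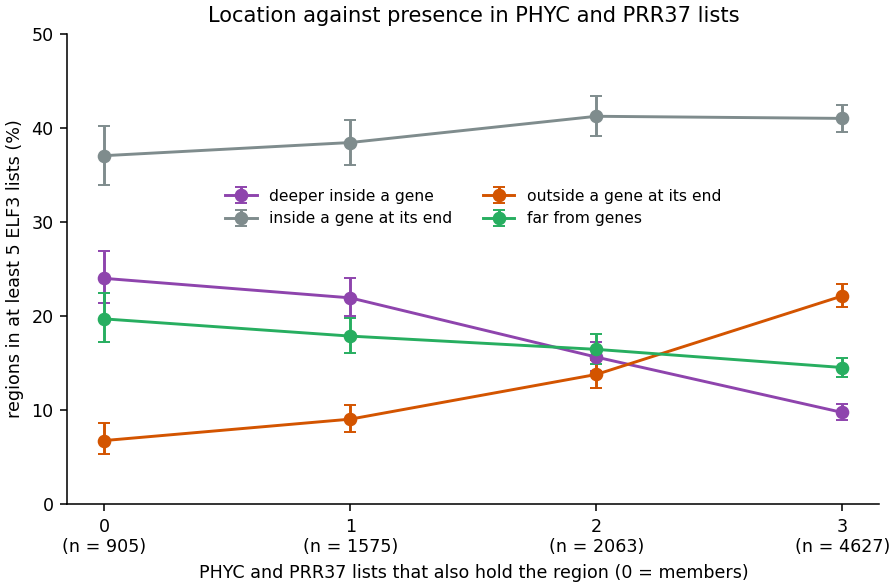
Share of regions in each location class (vertical axis, percent, bars are Wilson 95% intervals) against the number of PHYC and PRR37 lists that also hold the region (horizontal axis), for the 9170 regions in at least 5 ELF3 lists. ELF3-only regions are at 0. The share just outside a gene end goes from 6.74% at 0 lists to 22.1% at 3 lists, and the share deeper inside genes from 23.98% to 9.73%.

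The shift was graded over the number of other lists. The share just outside a gene end was 6.74% with no PHYC or PRR37 list, 9.02% with 1, 13.8% with 2 and 22.1% with 3. The share deeper inside genes was 23.98%, 21.9%, 15.6% and 9.73% in the same order. Since shared regions were also stronger, the comparison was repeated within bins of the median −log10 p, an alternative chosen after seeing the data. Between 1 and 1.5, 7.81% of 64 ELF3-only regions lay just outside an end, against 16.1% of 224 shared regions. Between 1.5 and 2, 5.95% of 336 ELF3-only regions lay there, against 17.7% of 1522 shared regions. Between 2 and 2.5 the shares were 5.92% of 321 and 16.0% of 2288, and between 2.5 and 3 they were 8.21% of 134 and 17.6% of 1645. The gap was smaller between 3 and 4, with 11.1% of 45 ELF3-only regions against 17.2% of 1432 shared regions, and 5 ELF3-only regions at 4 or above are too few to compare. Deeper inside genes lay 26.6% of ELF3-only and 13.4% of shared regions between 1 and 1.5, and 22.9% and 15.6% between 1.5 and 2. The shares were 24.9% and 15.0% between 2 and 2.5, and 24.6% and 14.5% between 2.5 and 3. This gap too was smaller between 3 and 4, with 17.8% and 13.0%.

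Across libraries, the same 2 locations also differed between the ELF3 libraries and the others with the ELF3-only regions left out. This comparison was added after seeing the data, and all peaks of ELF3-only regions were left out of it. The 2 locations were picked because the ELF3-only regions had differed there in the same lists, so the comparison is not independent of that result. The share of a library's remaining peaks that lay just outside a gene end was 14.7 ± 1.37% in ELF3 libraries (SD, n = 7, range 12.7 to 17.2%) and 20.8 ± 1.81% in PHYC and PRR37 libraries (SD, n = 3, range 19.5 to 22.9%), and the groups did not overlap (exact two-sided permutation p = 0.00833, the smallest that 120 splits allow). The share deeper inside genes was 17.4 ± 0.944% in ELF3 libraries (n = 7) and 13.5 ± 1.34% in PHYC and PRR37 libraries (n = 3), again without overlap (exact two-sided permutation p = 0.00833). Adjusted over these 2 shares by Benjamini-Hochberg, both values stayed at 0.00833, but this does not correct for having picked these 2 locations. Leaving out the ELF3-only regions removed no peak from the PHYC and PRR37 lists and changed little. The difference just outside an end was −6.14 points without them and −6.52 points with all peaks. The PHYC and PRR37 lists were also the 3 shortest. When each list was cut to its 5000 peaks of highest −log10 p, the share just outside an end was 15.6 ± 1.67% in ELF3 libraries (n = 7) and 22.3 ± 1.81% in the others (n = 3, exact permutation p = 0.00833). The share deeper inside genes in these cut lists was 13.4 ± 0.949% in ELF3 libraries (n = 7) and 10.4 ± 1.49% in the others (n = 3), a difference of 2.94 points (exact permutation p = 0.0167), and here the groups overlapped, with 11.8% in LD ZT0 below 12.2% in the first PHYC library. The PHYC and PRR37 libraries were all from LD. With LD libraries alone, 3 against 3, the difference was −6.13 percentage points and p could not go below 0.1. The PHYC samples are not said to be from separate plants, so these p-values measure the spread between libraries, which may be technical.

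The ELF3 conditions did not contribute evenly. An ELF3-only region was listed in 698 cases in LD ZT0, 690 in SD ZT0, 776 in LL ZT0, 766 in LD ZT4, 631 in SD ZT4, 754 in LD ZT20 and 727 in SD ZT20. SD ZT4 therefore lacked the most, 274 of 905, and LL ZT0 the fewest, 129. These are also the shortest ELF3 list (13666 peaks) and the longest (16457 peaks). LD ZT4, the condition of the PRR37 library, lacked 139, and LD ZT20, the condition of the PHYC libraries, lacked 151. LD ZT4 held 84.6% of the ELF3-only and 89.9% of the shared regions, whereas LD ZT0 held 77.1% of the ELF3-only and 93.0% of the shared regions. LD ZT0 was thus among the more complete lists for the shared regions but not for the ELF3-only ones. Among the peaks outside ELF3-only regions, LD ZT0 also had the highest share just outside a gene end of the 7 ELF3 libraries, 17.2%.

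**Figure D3:**
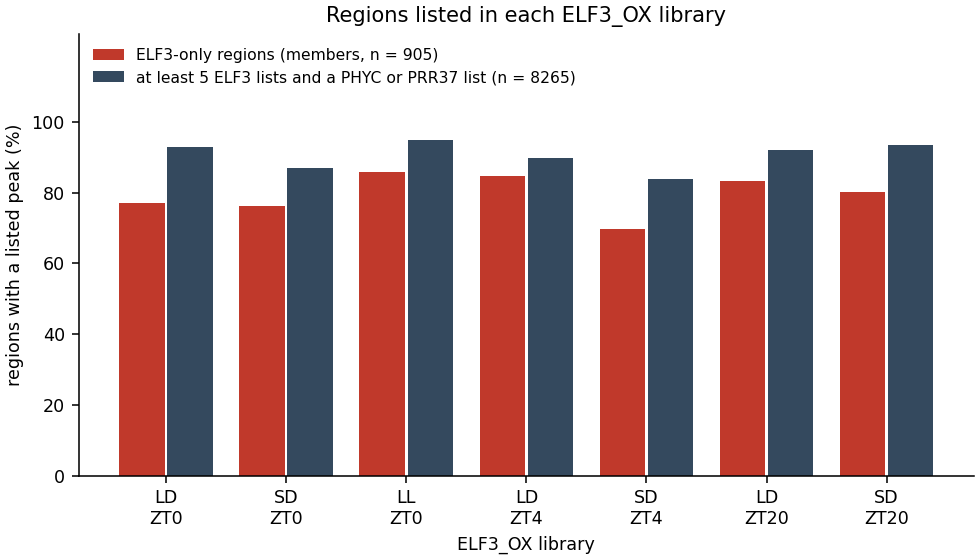
Share of regions with a listed peak (vertical axis, percent) in each ELF3_OX library (horizontal axis), for ELF3-only regions (red, n = 905) and shared regions (dark blue, n = 8265). Each bar is 1 library. The ELF3-only share is lowest in SD ZT4 (69.7%) and highest in LL ZT0 (85.7%).

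LD libraries held more ELF3-only regions than SD libraries at each of the 3 times, by 8 regions at ZT0, 135 at ZT4 and 27 at ZT20. The mean was 739 ± 36.3 in LD and 683 ± 48.4 in SD (SD, n = 3 each), a difference of 56.7 regions that did not exceed the spread between times (exact two-sided permutation p = 0.2, smallest possible 0.1). For the shared regions the means had the same order, with 91.6 ± 1.61% listed in LD and 88.1 ± 4.80% in SD (n = 3 each, exact permutation p = 0.4), but at ZT20 the share was 92.1% in LD and 93.4% in SD. Without ZT4 the difference for ELF3-only regions was 17.5 regions.

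Where a single list lacked the region, it was SD ZT4 in 63 of 285 cases, SD ZT0 in 53, LD ZT0 in 46, LD ZT4 in 35, SD ZT20 in 33, LD ZT20 in 28 and LL ZT0 in 27. SD ZT4 made up 22.1% of these cases and 26.9% of the shared regions lacking 1 list. The shares were 18.6% and 20.7% for SD ZT0, 16.1% and 9.97% for LD ZT0, and 12.3% and 16.3% for LD ZT4. They were 11.6% and 8.84% for SD ZT20, 9.82% and 10.6% for LD ZT20, and 9.47% and 6.71% for LL ZT0. Where 2 lists lacked it, the most frequent pair was SD ZT0 with SD ZT4, in 60 of 504 regions (11.9%). The same pair made up 15.7% of the shared regions that lacked 2 lists. Both lacking lists were LD in 12.1% of these regions and both SD in 26.2%, beside 13.1% and 26.6% of the shared regions that lacked 2 lists. A pair made of LD and SD at the same time was lacking at ZT0 in 31 ELF3-only regions, at ZT4 in 25 and at ZT20 in 17. The pair at ZT4 made up 4.96% of ELF3-only and 8.57% of shared regions that lacked 2 lists. No single pair of lists accounted for more than 60 of the 504 regions.

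The rule itself sets a gap between every ELF3-only region and the nearest PHYC or PRR37 peak, and the spacing expected at other positions was not measured. The distance to the nearest such peak had a median of 3741 bp, with quartiles of 1345 and 8645 bp, and 191 regions were more than 10000 bp away. A peak of PHYC or PRR37 lay within 500 bp of 114 regions (12.6%) and within 200 bp of 53, and the smallest gap was 6 bp. The ELF3-only share of recurrent ELF3 regions was 12.3% on chromosome 4, where 165 lie, and between 8.87% and 9.74% on the other 4 chromosomes. Neighbouring ELF3-only regions were typically far apart, with a median spacing of 202536 bp, and 25 neighbouring pairs lay within 5000 bp of each other.

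The strongest ELF3-only region lay on chromosome 4 from 1840880 to 1841350. It had the highest median fold of all members, 4.12. Its listed fold enrichment was 4.82 in LD ZT0, 5.27 in SD ZT0, 3.45 in LL ZT0, 2.69 in LD ZT20 and 4.12 in SD ZT20, and both ZT4 lists lacked it. The −log10 q was 4.55 in LD ZT0, 6.51 in SD ZT0 and 2.42 in SD ZT20, so that 3 libraries passed a q-value of 0.01, and 1.37 in LL ZT0 and 0.0541 in LD ZT20. It was thus listed in every ZT0 and ZT20 library and in neither ZT4 library. The PHYC libraries were from LD ZT20 and the PRR37 library from LD ZT4. The calls under q of 0.01, in LD ZT0, SD ZT0 and SD ZT20, had no PHYC or PRR37 list of the same condition beside them. The nearest annotated gene was the long non-coding RNA gene LOC112268741, 229 bp away, and no protein-coding gene lay within 2 kb. The nearest PHYC or PRR37 peak was 10267 bp away.

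Further regions in at least 4 ELF3 lists and in no PHYC or PRR37 list lay on one side of it. The member at 1837726 to 1838570, on the end of the protein-coding gene LOC100834249, was listed in all 7 ELF3 libraries. Its fold was 3.56 in LD ZT0, 3.31 in SD ZT0, 2.62 in LL ZT0, 2.67 in LD ZT4, 2.59 in SD ZT4, 2.44 in LD ZT20 and 3.59 in SD ZT20, and its nearest PHYC or PRR37 peak was 13047 bp away. Between the members, a region at 1839351 to 1840412 was held by 4 ELF3 lists only, with a fold of 3.998 in LD ZT0, 4.92 in SD ZT0 and 3.63 in SD ZT20 and a highest fold of 2.44 in LL ZT0. The same 4 lists, and no others, held a region at 1825962 to 1826277. These last 2 regions fell short of the rule and were not counted as members. On the far side, SD ZT0 alone of the ELF3 lists held a peak at 1851333 to 1851603, with a fold of 2.47 and no overlapping PHYC or PRR37 peak. Peaks of PHYC, PRR37 and ELF3 together were listed farther out on that side, at 1855505 to 1855765.

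**Figure D4:**
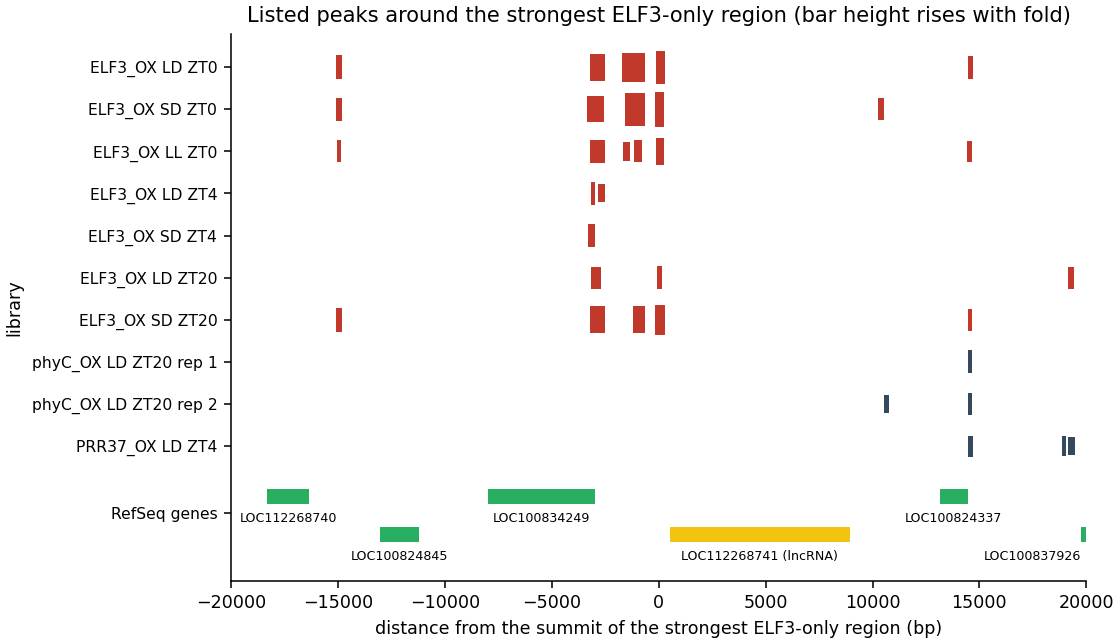
Listed peaks of the 10 libraries (rows) within 20000 bp of the strongest ELF3-only region on chromosome 4 (horizontal axis, distance from its summit in bp). Bar height increases with the listed fold enrichment, red marks ELF3, dark blue marks PHYC and PRR37, and RefSeq genes are drawn at the bottom (green protein-coding, yellow long non-coding RNA). ELF3 peaks cluster from the summit to about the end of LOC100834249, and no PHYC or PRR37 peak lies within 10267 bp.

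The second member under q of 0.01 lay on chromosome 1 from 19480761 to 19481025, 11 bp from LOC100829466. Its fold was 2.57 in LD ZT0, 3.55 in SD ZT0, 2.97 in LD ZT4, 2.67 in SD ZT4 and 2.94 in LD ZT20, and LL ZT0 and SD ZT20 lacked it. Its −log10 q was 2.39 in SD ZT0 and at most 0.836 in the other lists that held it. Unlike the region on chromosome 4, it had a PHYC or PRR37 peak only 141 bp away, so it would not count as ELF3-only with a margin of 200 bp.

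The region with the next highest median fold, 3.37, lay inside LOC100841098 on chromosome 5 from 4148689 to 4149121. Its fold was 3.35 in SD ZT0, 4.08 in LL ZT0, 3.33 in LD ZT4, 3.35 in SD ZT4, 3.64 in LD ZT20 and 3.38 in SD ZT20, and only LD ZT0 lacked it. The values of the 6 lists lay close together, and the summits spanned 45 bp. The nearest PHYC or PRR37 peak was 134737 bp away.

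The other 8 of the 10 regions with the highest median fold had medians of 3.08 to 3.27. They overlapped LOC100846765, LOC100831484 and LOC100835661 on chromosome 4, LOC112268491 on chromosome 3, LOC100832853 on chromosome 2 and LOC100834758 on chromosome 1, or had no protein-coding gene within 2 kb (chromosome 3, 50297619 to 50297917, and chromosome 4, 30195411 to 30195657). The RefSeq table gives these genes no name beyond the identifier. Of these 8, the regions at LOC100832853 and LOC100834758 were listed in all 7 ELF3 libraries, with folds of 2.63 to 3.49 and of 2.41 to 3.47.

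Among the 116 regions in all 7 ELF3 lists, the 10 with the highest median −log10 p had values of 2.96 to 3.66. The region with the tightest summits of these was at the end of LOC100842336 on chromosome 2 (51023913 to 51024194), where the 7 summits spanned 23 bp. Its fold was 2.83 in LD ZT0, 2.15 in SD ZT0, 3.37 in LL ZT0, 3.02 in LD ZT4, 2.49 in SD ZT4, 3.57 in LD ZT20 and 3.00 in SD ZT20. The LD value was above the SD value at each of the 3 times there. At LOC100843967, also on chromosome 2, the fold was lower in LD than in SD at ZT0 (2.66 in LD, 3.44 in SD) and ZT4 (2.67 in LD, 3.32 in SD), and at ZT20 it was 2.97 in LD and 2.87 in SD. With 1 library per condition, none of these differences has a replicate check.

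**Figure D5:**
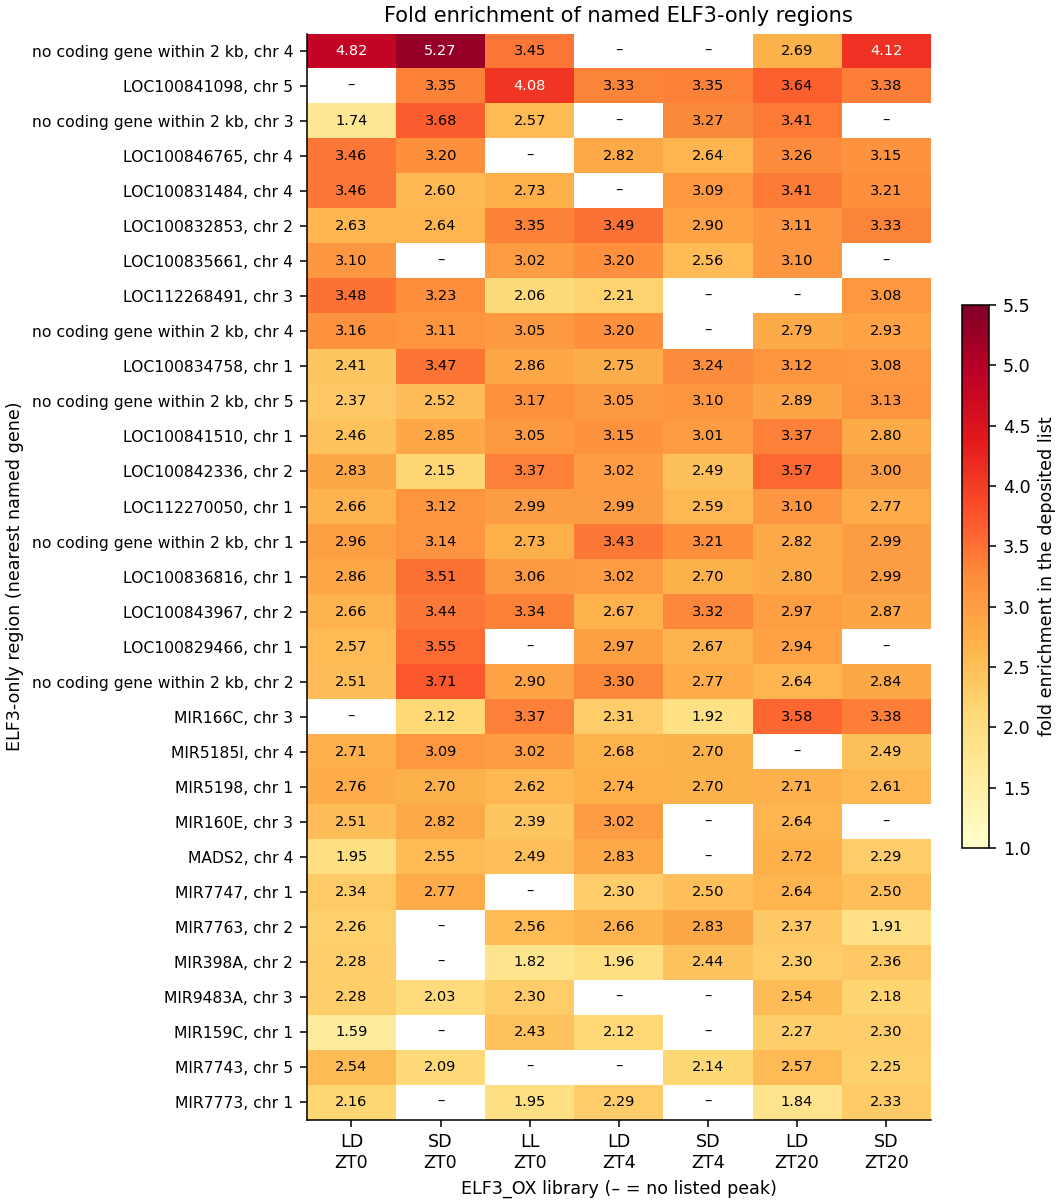
Fold enrichment as listed (colour and number) of named ELF3-only regions (rows, by the nearest named gene and chromosome) in the 7 ELF3_OX libraries (columns), with a dash where the list has no peak. The upper rows are the regions with the highest median fold or −log10 p, and the lower rows from MIR166C down lie within 2 kb of a microRNA gene or in MADS2. The strongest region reaches 5.27 in SD ZT0 and is absent from both ZT4 libraries.

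Protein-coding genes were within reach of most ELF3-only regions. A protein-coding gene lay within 2 kb of 733 regions, and 586 regions overlapped one, touching 589 of 25449 genes. By midpoint, 61.0% lay inside a gene, against 54.1% of shared and 47.1% of all merged regions. Farther than 2 kb from any gene lay 19.7%, against 15.6% of shared and 20.8% of all merged regions. Being within 2 kb of a gene was thus not particular to the ELF3-only regions. Protein-coding genes that held the midpoint of an ELF3-only region had a median length of 4076 bp, against 3945 bp for those that held a shared region and 3149 bp for all. LOC100838991 on chromosome 2 and LOC100845238 on chromosome 4 each carried 2 ELF3-only regions. In LOC100838991 both regions were in 6 lists, with median folds of 2.01 and 1.85, and in LOC100845238 both were in 5 lists, with 2.29 and 2.49.

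Few genes carried a descriptive name in the gene table, and none was named for a clock or light-signalling component, so these groups could not be examined. Of 5 genes named as MADS-box or flowering genes, MADS2 alone had an ELF3-only region within 2 kb, and 1 of the 5 had a shared region, where 3.74% of all protein-coding genes had an ELF3-only and 30.5% a shared region. MADS-box proteins are transcription factors, many of which specify floral organs and the floral transition. The region in MADS2, on chromosome 4 from 44690031 to 44690353, had a fold of 1.95 in LD ZT0, 2.55 in SD ZT0, 2.49 in LL ZT0, 2.83 in LD ZT4, 2.72 in LD ZT20 and 2.29 in SD ZT20, and SD ZT4 lacked it. Its q-value was near 1 throughout (highest −log10 q 0.0321), and the nearest PHYC or PRR37 peak was 16436 bp away. None of the 5 CBF genes, which encode cold-response transcription factors, had an ELF3-only region within 2 kb, and 3 had a shared region. With 5 genes in each group, these counts were not tested against the shares of all genes. One further named gene, SWN1, a secondary wall NAC transcription factor, was singled out after its values were seen. It held a member at its end on chromosome 1 (73459487 to 73459790), with folds of 2.60 in LD ZT0, 2.93 in SD ZT0, 2.30 in LD ZT4, 2.57 in SD ZT4 and 2.98 in LD ZT20, and LL ZT0 and SD ZT20 lacked it.

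Of 310 microRNA genes, 49 (15.8%) had a shared region within 2 kb, below the 30.5% of protein-coding genes. An ELF3-only region lay within 2 kb of 11 microRNA genes (3.55%), near the 3.74% of protein-coding genes. An ELF3-only region overlapped 4 of them: MIR166C, MIR398A, MIR5198 and MIR7773. In plants miR166 targets class III HD-ZIP transcription factors, which set leaf polarity and vascular pattern. The region on MIR166C (chromosome 3, 32841167 to 32841627) had a fold of 2.12 in SD ZT0, 3.37 in LL ZT0, 2.31 in LD ZT4, 1.92 in SD ZT4, 3.58 in LD ZT20 and 3.38 in SD ZT20, and LD ZT0 lacked it. Both ZT20 libraries and LL ZT0 were thus above the ZT4 libraries and SD ZT0. The highest −log10 q was 0.991, and a PHYC or PRR37 peak lay 1365 bp away.

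The microRNA miR398 targets copper and zinc superoxide dismutase transcripts. The region on MIR398A (chromosome 2, 35683392 to 35683811) was weaker, with folds from 1.82 in LL ZT0 to 2.44 in SD ZT4 over 6 lists and none in SD ZT0. The region on MIR5198 (chromosome 1, 3140023 to 3140280) was in all 7 lists with nearly constant folds, from 2.61 in SD ZT20 to 2.76 in LD ZT0. That on MIR7773 (chromosome 1, 65091990 to 65092340) was in 5 lists, lacking SD ZT0 and SD ZT4, and had a PHYC or PRR37 peak 116 bp away. Within 2 kb of other microRNA genes, members lay 123 bp from MIR7747, 197 bp from MIR7763, 655 bp from MIR5185I, 1121 bp from MIR9483A, 1183 bp from MIR160E, 1690 bp from MIR7743 and 1741 bp from MIR159C. Their median folds ran from 2.25 for MIR7743 to 2.71 for MIR5185I. The microRNA miR160 targets auxin response factors and miR159 targets GAMYB factors.

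Other small RNA genes were reached to different extents. An ELF3-only region lay within 2 kb of 9 of 299 snoRNA genes (3.01%), 5 of 86 snRNA genes (5.81%), 2 of 528 tRNA genes (0.379%) and 2 of 153 rRNA genes (1.31%), beside 3.74% of protein-coding genes. A shared region lay within 2 kb of 33.4% of snoRNA, 22.1% of snRNA, 16.3% of tRNA and 9.15% of rRNA genes, beside 30.5% of protein-coding genes. A single member on chromosome 2 (8650288 to 8650740) accounted for 5 of the 9 snoRNA genes and another on chromosome 4 (43365488 to 43365892) for 3. The tRNA genes were TRNAG-UCC and TRNAC-GCA, 1793 and 1692 bp away. Long non-coding RNA genes were overlapped by 40 members. Of 2978 such genes, 85 (2.85%) had an ELF3-only region within 2 kb, below the 3.74% of protein-coding genes, and 20.8% had a shared region.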

How the data were processed

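Anti-FLAG ChIP-seq peak lists of 10 libraries were analysed, 1 list per library, and the input, which makes 11 samples, had no list analysed here. In the methods of the study, the authors aligned the reads to the Brachypodium genome with bwa, discarded duplicate and non-primary alignments, and called peaks with MACS2 under a q limit of 0.01. The submitters' processing notes name Trimmomatic, Bowtie2, Picard, deepTools and MACS2 and the Arabidopsis build TAIR10, while the lists use Brachypodium chromosome names. As deposited, each peak has a fold enrichment (a ratio to local background), −log10 p and −log10 q from the authors' MACS2 run, a score made by the authors' caller, which was not used, and a summit. The deposited lists also hold peaks at q of 1, so that limit is not visible in them, and weak peaks decide membership. Depth is unknown, so longer lists cannot be set against sequencing effort.

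The merged-region rule, the members and the gene lists were chosen with earlier results of these data known. Peaks were merged in Python (3.11.15) with pandas, leaving out 7 peaks off chromosomes 1 to 5. Where a list had several peaks in a region, the one with the highest −log10 p was used. Locations were taken from the midpoint relative to protein-coding genes of the RefSeq table of assembly Bd21. As a check of that table, 42.1% of all regions lay within 500 bp of a gene end, against 20.3% and 19.8% with genes shifted by 10000 and 50000 bp. Only coordinates of deposited peaks are printed, counted from 1.

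Named regions were those with q under 0.01, the 10 with the highest median fold, the 10 in all 7 ELF3 lists with the highest median −log10 p, those within 2 kb of a gene of the lists, and any that make up a count of 5 or fewer. Gene groups were matched by words in gene symbols or by gene type. Libraries were compared by exact two-sided permutation, and shares have Wilson 95% intervals. The merging, location and permutation steps were tested on simulated data. Alternatives were the number of lists required, p thresholds, overlap margins, summit windows, gene distances and omission of single libraries. Bins of −log10 p and the comparison of locations across libraries were added after seeing the data. No genome sequence was used here, so the planned search for motifs was not run and no sequences are shown.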

Additional observations from a re-analysis of the deposited data

How the results depend on the processing

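The count of 905 depended on the rule. It was 1818 with at least 4 of 7 ELF3 lists, 401 with at least 6 and 116 with all 7. It was 237 with only ELF3 peaks of −log10 p of at least 2 and 580 with that limit in all 10 lists. Summit windows gave 925, a margin of 200 bp 852 and of 500 bp 791. Leaving out 1 library and keeping the numbers of lists required gave 505 (without LD ZT4 or LL ZT0) to 1758 (without the first PHYC library), with 1334 without PRR37, 1207 without the second PHYC library, 525 without LD ZT20, 547 without SD ZT20, 561 without LD ZT0 or SD ZT0 and 613 without SD ZT4. In all 23 settings, the rule as used included, the ELF3-only share was higher than the shared one deeper inside genes and far from genes, and lower just outside a gene end. The ELF3-only share just outside an end was 4.31% with all 7 lists, 9.66% with −log10 p of at least 2 in all lists and 12.3% (23.7% for shared regions) with 1000 bp counted as the end, where 12.4% lay deeper inside. The share far from genes was 23.3% with all 7 lists, 17.1% with −log10 p of at least 2 in all lists, 26.7% with 1 kb as near and 13.3% with all RefSeq genes. Taking the highest value over lists gave a median fold of 2.67 and −log10 p of 2.71, and q under 0.05 was met by 11 regions. For LD libraries alone the ELF3 difference was −6.13 points just outside ends and 3.78 points deeper inside (exact permutation p = 0.1, the smallest possible). Leaving out any 1 library kept these differences within −6.81 to −5.11 and 3.45 to 4.64 points, with exact permutation p of at most 0.0278. These repeats used the same 2 picked locations and the same lists, so they are not independent support. Pairing the LD and SD libraries by time left the LD minus SD difference at 56.7 regions (replicate block, exact sign-flip permutation p = 0.25, the smallest possible), and it was 17.5 to 81.0 regions without 1 time. Each ELF3 condition has 1 library, so differences between single conditions have no replicate check.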
